A study of Mus musculus with 4 samples.

Results

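Transcripts of 43 genes that copy DNA or supply its building blocks were followed in 4 RNA sequencing libraries of cultured mouse cells. The genes were taken by symbol from a list, and all 43 were found among the 55401 genes of the deposited table. The list covers origin licensing, the replicative helicase, the DNA polymerases, the sliding clamp and its loader, strand binding and joining, deoxynucleotide (dNTP) supply and entry into S phase. The libraries came from cells of C57BL/6 ovary that the labels call female germline stem cells. The medium of both groups held serum, leukemia inhibitory factor and the growth factors GDNF, bFGF and EGF. In the control group, 2 libraries received the solvent DMSO, and in the treated group 2 libraries received daidzein, an isoflavone of soy. Neither the dose nor the length of exposure is stated in the sources used here. The title of the series ties daidzein to proliferation, so the comparison asks whether transcripts of the replication machinery differ with treatment.

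Before S phase, the origin recognition complex, Cdc6 and Cdt1 load the Mcm2 to Mcm7 helicase onto DNA, and Cdc45 and the GINS complex switch it on when S phase begins. Polymerase alpha with primase lays down primers, polymerases delta and epsilon extend them, and the Pcna clamp, placed by replication factor C, holds the polymerases on the template. Many of these genes are transcribed together at the G1 to S boundary under E2F transcription factors, and their transcripts are abundant in dividing cells of most tissues.

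Library totals ran from 16230400 to 18537134 counts. All pairs of libraries differed beyond sampling noise, with a chi-square per degree of freedom of 2.23 to 4.81, so none was treated as a repeat of another. The closest pairs were those with the same number in both groups, at 2.23 for replicates 2 and 3.51 for replicates 1, beside 4.17 within DMSO and 4.38 within daidzein. No label says that the replicates were separate cultures, and the tests below weigh only the scatter among these libraries, which may be technical. Of 9 germ cell markers, 8 had at most 5 reads over all libraries, and Dppa3, Pou5f1, Figla and Nobox had 0. Ptprc, the common leukocyte antigen, had 2593 to 3187 reads per library. Of 7 mast cell markers, Kit had 10574 to 12205 reads and Cpa3 had 11556 to 13583. Ms4a2 had 49 to 79 reads, Hdc 1 to 4 and Cma1 0 to 3, whereas Fcer1a and Tpsb2 had 0. The summed level of the 7 ran from 1364.7 to 1368.5 CPM (counts per library of a common size) with DMSO, and from 1393.5 to 1395.5 with daidzein. Nearly all of this sum came from Kit and Cpa3. Marker sums were scaled by library totals alone, unlike the CPM of single genes below. Of 3 macrophage markers, Adgre1 had 2006 to 2339 reads and Csf1r at most 2, and their sum was 134 to 135 CPM with DMSO and 120.3 to 129 with daidzein. The part of these sums in the differences between groups was not tested. The labelled identity was not borne out by its defining markers, and the cells are called cultured cells here.

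Promoter sequence was not used to choose the genes. RefSeq promoters of build GRCm38.p6, from 250 bases before to 50 bases after the annotated start, were found for 35 of the 43 genes, in 42 entries since some genes have several starts. Mcm4, Gins1, Gins2, Gins4, Prim2, Pole, Rfc2 and Ccne2 had no entry. An E2F motif, searched as TTTCCCGC, TTTGGCGC, TTTCGCGC or TTTGCCGC on both strands with overlapping matches kept, was present in 15 of 42 entries, or 35.7% (95% Wilson interval 23.0% to 50.8%). The same letters were found in 4.20% of 11088 promoters of all genes tested and in 2.26% of all 32851 promoters. Among promoters of the 81 other replication genes described further on, the share was 19.6%, in 18 of 92 entries. The median GC content was 57.3% for the entries of the 43 genes and 61.0% for those of all tested genes. The CCAAT box (CCAAT, both strands) was present in 59.5% of the 42 entries and in 38.3% of promoters of tested genes. Its share was 39.1% for the 81 other replication genes, in 36 of 92 entries, and 37.4% for all promoters. TTTGAA, the core of the cell cycle homology region of mitotic genes, was present in 14.3% of the 42 entries and 12.1% of promoters of tested genes. Its share was 18.5% for the 81 other genes and 17.9% for all promoters. These matches describe letters and show no binding.

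The 9 stretches printed next are those in which an E2F match lies before the start, with the match in capitals and up to 30 bases on each side. Bases after the start are not shown, and each stretch reads 5′ to 3′ on the strand of its gene, as RefSeq gives it on GRCm38.p6.
Orc1: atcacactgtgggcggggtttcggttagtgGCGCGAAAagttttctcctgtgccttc
Cdc6: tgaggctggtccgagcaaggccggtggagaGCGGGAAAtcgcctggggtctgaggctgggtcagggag
Mcm5: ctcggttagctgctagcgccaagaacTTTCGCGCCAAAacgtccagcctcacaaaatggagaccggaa
Mcm6: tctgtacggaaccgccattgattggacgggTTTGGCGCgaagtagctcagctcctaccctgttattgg
Mcm7: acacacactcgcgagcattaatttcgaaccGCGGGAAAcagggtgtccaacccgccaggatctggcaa
Gins3: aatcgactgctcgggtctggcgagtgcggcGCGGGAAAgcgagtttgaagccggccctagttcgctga
Pola1: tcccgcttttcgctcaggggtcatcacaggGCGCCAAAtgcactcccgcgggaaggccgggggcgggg
Rfc3: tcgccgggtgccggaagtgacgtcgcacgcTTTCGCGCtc
Cdk2: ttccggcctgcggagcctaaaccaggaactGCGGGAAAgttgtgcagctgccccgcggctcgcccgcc

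For the licensing genes the stretches lie on GRCm38.p6 as Orc1 at chr4:108579397-108579453 (plus strand) and Cdc6 at chr11:98907983-98908050 (plus strand). Those of the helicase genes are Mcm5 at chr8:75109330-75109397 (plus strand), Mcm6 at chr1:128359715-128359782 (minus strand), Mcm7 at chr5:138172011-138172078 (minus strand) and Gins3 at chr8:95633488-95633555 (plus strand). The others are Pola1 at chrX:93632256-93632323 (minus strand), Rfc3 at chr5:151651209-151651248 (minus strand) and Cdk2 at chr10:128705154-128705221 (minus strand). The first base of the match lay close to the start in Rfc3 and Orc1, at positions -10 and -27, and farther off in Mcm7, at -165, counted back from the start. In Mcm5 the capitals run over a pair of overlapping matches, TTTCGCGC and the reverse complement of TTTGGCGC. Mcm6 held a further overlapping pair at -110 and -106. The other 6 genes with a match, Cdt1, E2f2, Lig1, Mcm3, Pold1 and Pole2, had it only after the start, between positions 11 and 40. Among the helicase genes with an entry, Mcm3, Mcm5, Mcm6, Mcm7 and Gins3 had an E2F match. Mcm2, Mcm10 and Cdc45 had none in this window.

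**Figure D1:**
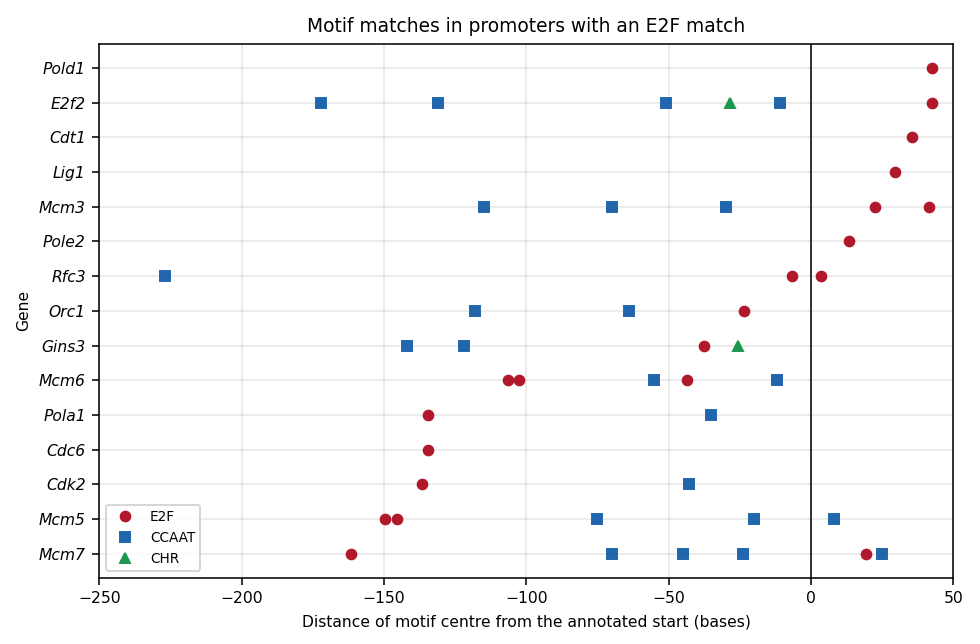
Positions of motif matches in the promoters of the 15 genes with an E2F match. The x axis is the distance of the match centre from the annotated start in bases, the y axis lists the genes, circles are E2F, squares CCAAT and triangles TTTGAA (CHR). E2F matches start between -165 and 40, and several CCAAT boxes lie within 100 bases before the start.

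The genes formed a graded range of levels that was nearly the same in each library. Levels between genes are given as FPKM, which divides reads by exon length and library size, as the authors deposited them, and means are over the 4 libraries. Of the 43 genes, 39 had at least 10 FPKM and 6 had at least 100. Pcna, the clamp, stood highest. It had 224 and 228 FPKM with DMSO and 225 and 224 with daidzein. Mcm3 followed with 194, 200, 191 and 196 FPKM in the same order. E2f2, an S phase transcription factor, stood lowest, with 4.30 and 3.67 FPKM against 3.56 and 3.62. The mean of Pcna was 59.5 times that of E2f2. In the order of means, 19 of 42 neighbouring pairs had library values that did not overlap, among them Pcna over Mcm3 and Mcm3 over Rrm2. The other 23 pairs, such as Rrm2 and Mcm5 or Rpa1 and Rpa2, could not be ranked beyond their spread.

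**Figure D2:**
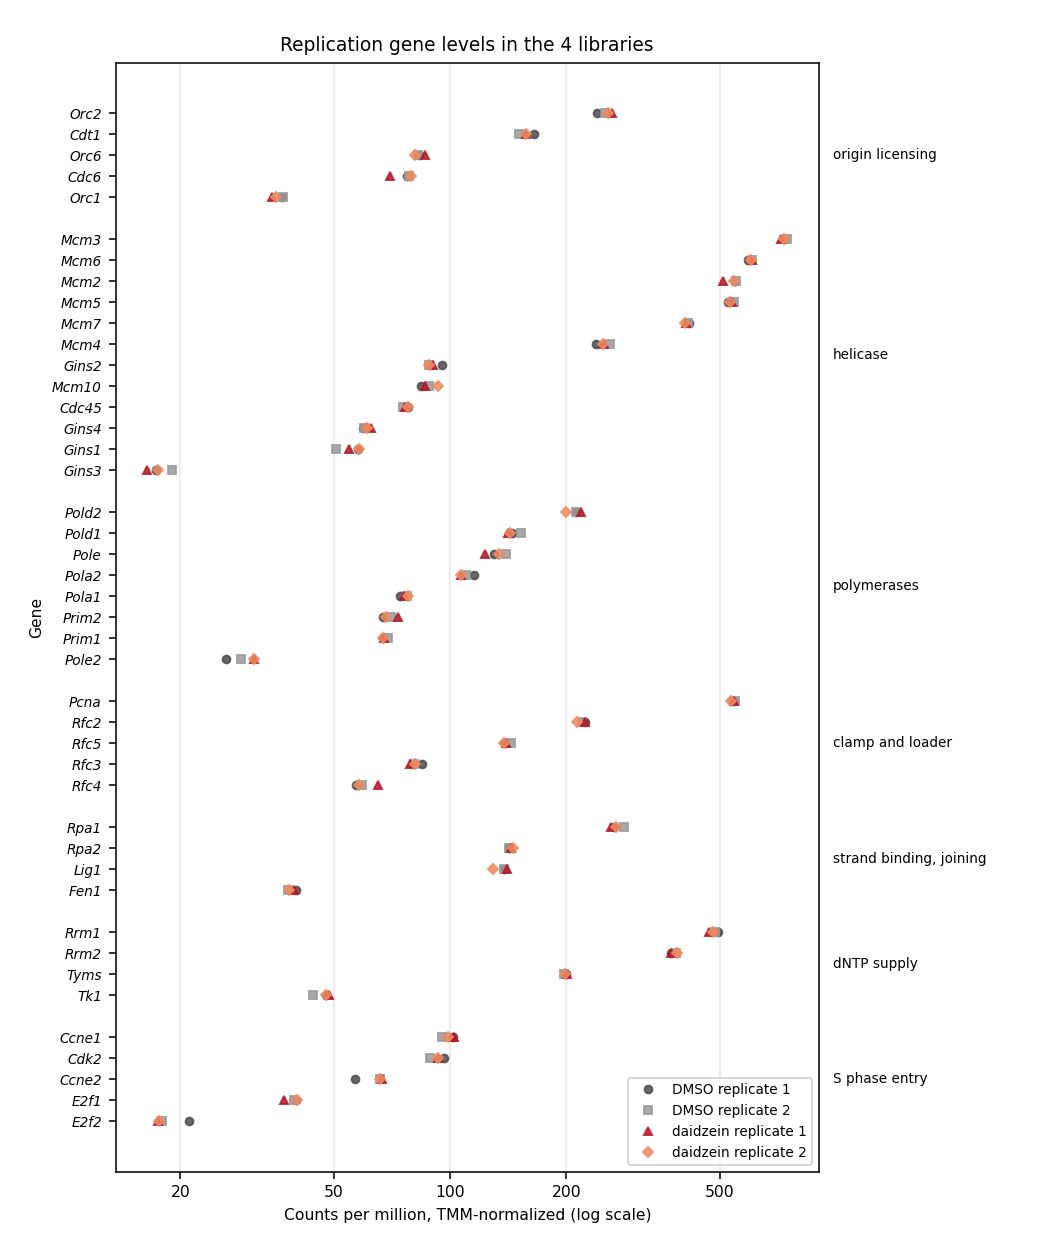
Levels of the 43 genes in CPM after TMM normalization (x axis, log scale), by gene (y axis) and function (right). Each point is 1 library, with 2 DMSO (grey) and 2 daidzein (red and orange) libraries. The points of a gene nearly coincide, with the widest relative spread for E2f2, whereas genes differ from each other by far more.

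Among licensing genes, which mark where replication can begin, Orc2 stood highest at 65.5 ± 2.56 FPKM (SD, 4 libraries). Cdt1, which helps to load the helicase, had 50.2 ± 1.69, Orc6 had 33.7 ± 0.665 and Cdc6, the loading ATPase, had 14.6 ± 0.895. Orc1, the ATPase subunit of the origin complex, had 10.3 ± 0.332. Orc1 and Orc2 encode parts of the same complex, yet Orc2 stood 6.36 times higher. Orc3, Orc4 and Orc5, subunits outside the list, had 11.7, 6.4 and 13.1 FPKM.

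The Mcm2 to Mcm7 transcripts all lay among the 9 highest of the 43 on FPKM, with Pcna, Rrm2 and Pold2, but were not even. Mcm3 had a mean of 195 FPKM, Mcm5 of 134, Mcm6 of 129, Mcm7 of 92.7, Mcm2 of 77.3 and Mcm4 of 69.5. Their proteins form a ring with 1 copy of each subunit. The highest of the 6 transcripts was 2.81 times the lowest. Library values of Mcm4, 66.4 to 72.7, lay below all those of Mcm2, 73.0 to 79.4. The GINS subunits spread wider, from Gins4 at 44.9 ± 0.922 and Gins1 at 36.4 ± 2.25 to Gins2 at 22.1 ± 0.711 and Gins3 at 6.49 ± 0.424 FPKM. Cdc45, which joins GINS on the active helicase, had 21.9 ± 0.313, and Mcm10, a firing factor, had 11.4 ± 0.542.

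Of the polymerase genes, Pold2, an accessory subunit of polymerase delta, stood at 111 ± 3.61 FPKM and its catalytic partner Pold1 at 29.9 ± 1.13. Pole, the catalytic subunit of polymerase epsilon, had 11.8 ± 0.671, close to its partner Pole2 with 10.1 ± 0.793. The primer-making set lay low on FPKM, with Prim1 at 17.5 ± 0.311, Pola2 at 13.2 ± 0.458, Prim2 at 11.7 ± 0.445 and Pola1, the catalytic subunit, at 8.66 ± 0.215. The 4 clamp loader subunits on the list lay within a factor of 1.73. Rfc4 had 39.0 ± 2.17, Rfc2 had 34.9 ± 0.614, Rfc5 had 29.9 ± 0.631 and Rfc3 had 22.5 ± 0.667. Rfc1, a clamp loader subunit outside the list, had 39.8 FPKM. All of these were far below the clamp itself.

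Rpa1 and Rpa2, subunits of the protein that coats bare strands, had 48.2 ± 1.88 and 47.8 ± 0.728 FPKM. Lig1, the ligase that seals Okazaki fragments, had 31.9 ± 1.01, and the flap nuclease Fen1 had 16.0 ± 0.292. In dNTP supply, Rrm2, the small subunit of ribonucleotide reductase, had 137 ± 3.35 and the large subunit Rrm1 had 43.7 ± 1.02. Tyms, thymidylate synthase, had 32.7 ± 0.122, and Tk1, the salvage thymidine kinase, had 9.04 ± 0.355. Of the S phase entry genes, the cyclins Ccne1 and Ccne2 had 37.3 ± 1.03 and 18.2 ± 1.38, their kinase Cdk2 had 14.9 ± 0.472 and E2f1 had 12.4 ± 0.469.

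The length used for a gene set part of these ratios. The deposited lengths count every annotated exon, and for 9 of the 43 genes they were over 2 times the length of the GENCODE M21 transcript with the longest coding sequence. Scaled by that transcript, an alternative chosen after seeing the data, the largest moves in rank were those of Pola2 from 33 to 22, Tk1 from 40 to 31 and Gins4 from 14 to 23. The level of Tk1 was 32.6 on this scale and that of Pola2 was 45.3, so their low place on FPKM depended on the length used. Rrm1 moved in rank from 15 to 9, and Rrm2 was 1.44 times Rrm1 in place of 3.13 times. The ratio of highest to lowest helicase subunit became 3.48 and that of the GINS subunits 7.29. Mcm3 stayed highest and Mcm4 lowest of the Mcm2 to Mcm7 genes. The order between them changed, with Mcm6 at 206, Mcm2 at 160, Mcm5 at 158 and Mcm7 at 139, and library values of Mcm2 and Mcm5 overlapped. Mcm4 moved in rank from 9 to 14, so its place among the 9 highest depended on the length used. For polymerase alpha and primase the ratio went from 2.02 to 3.17, with Pola1 lowest on both scales. Rfc3, lowest of the 4 listed clamp loader subunits on FPKM, was highest of them on this scale, so their order is not settled here. Cdt1 at 72.1 was slightly above Orc2 at 71.0 on this scale, and Gins1 at 50.8 was above Gins4 at 44.9. Which licensing gene and which GINS subunit stood highest is thus not settled either. The order of all 43 genes on the scales had a Spearman correlation of 0.94, which is across genes that share libraries and so is a description only.

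**Figure D3:**
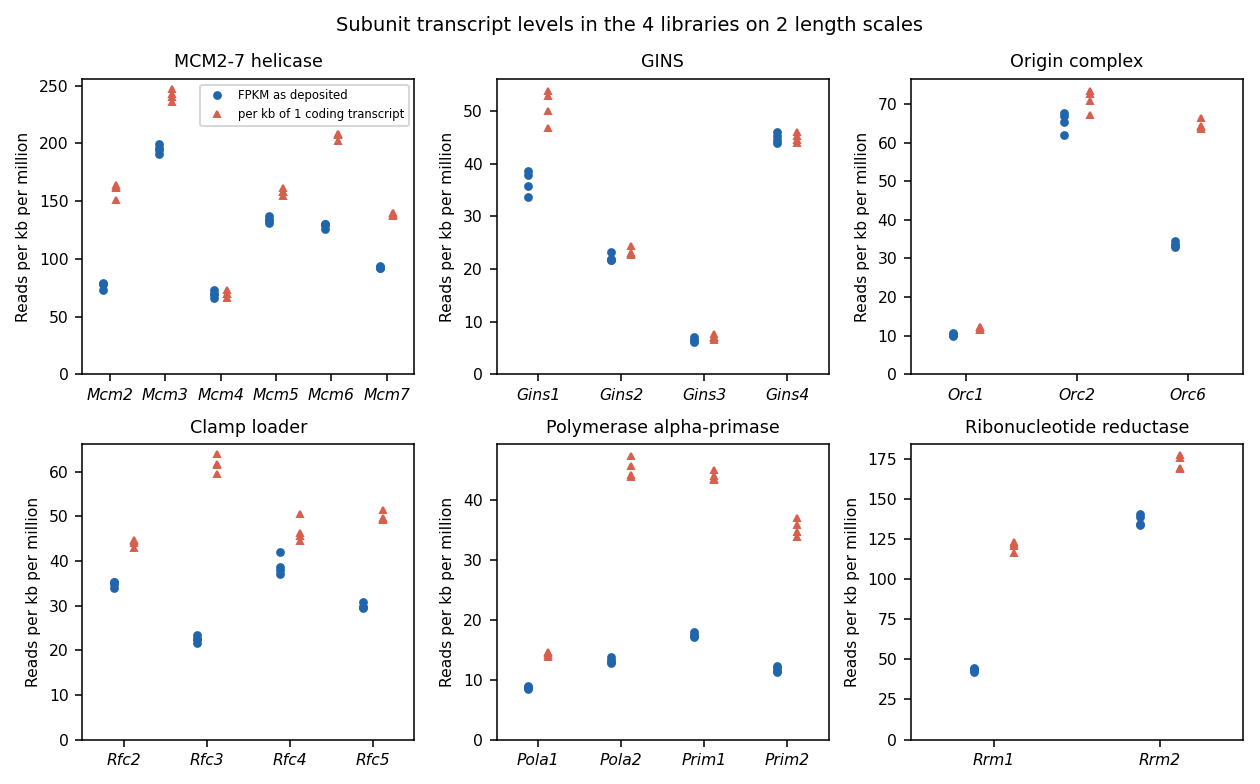
Levels of subunit transcripts in 6 complexes (panels), as reads divided by length and library size (y axis, from 0), for each listed subunit (x axis). The origin complex and clamp loader panels leave out subunits that are not among the 43 genes. Each point is 1 of 4 libraries, with circles for FPKM as deposited and triangles for the length of 1 coding transcript. Mcm3 is highest and Mcm4 lowest of the Mcm2 to Mcm7 genes on both scales, and Gins3 and Orc1 lie lowest in their panels.

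Some counts carry a limit of assignment. In 10 of the 43 genes a gene on the opposite strand overlaps and had reads above 10% of the member's own, and no source used here states whether the counting used strand. They were Mcm7, Gins2, Cdc45, Orc2, Orc6, Rfc2, Rfc4, Rfc5, Fen1 and Ccne2, and for Rfc4 the neighbour Eif4a2 had 417% of its reads. For Gins2, 70.7% of the transcript is overlapped by a transcript of the neighbour Gse1, which lies on the opposite strand. For Fen1, 80.5% is overlapped by Gm10143, also on the opposite strand, which had 16 reads. Cdc6, Mcm7, Pcna and Rfc5 have a copy elsewhere at 95% identity over at least 30% of the transcript, and the most read of these copies, Pcna-ps2, had 109 reads against 37350 for Pcna.

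Between the groups, 0 of the 43 genes rose and 0 fell with daidzein by the quasi-likelihood test of edgeR, with p adjusted by Benjamini-Hochberg over 11700 genes. All 43 passed the filter on low counts and were tested, the lowest adjusted p among them was 1.00, and 0 had even an unadjusted p under 0.05. Over all genes tested, 2 were called (0.0171%), neither of them on the list, and 341 (2.91%) had an unadjusted p under 0.05. DESeq2 and limma on FPKM also called 0 of the 43, with 0 at an unadjusted p under 0.05. With the replicate number as a block, 27 genes were called (0.231%), of which 0 were on the list. In that fit 1 of the 43 and 748 of the 11700 genes had an unadjusted p under 0.05. In bulk RNA, a difference in the share of cells in S phase and one in RNA per cell, in either direction, cannot be told apart. Counts of transcripts do not measure DNA synthesis.

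**Figure D4:**
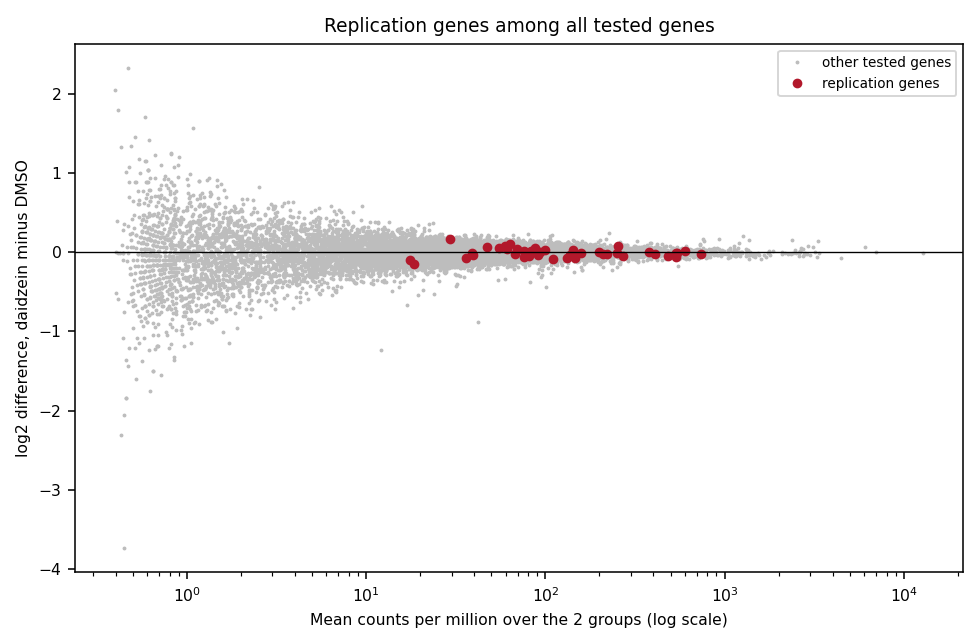
The log2 difference of daidzein minus DMSO (y axis) against the mean CPM of the groups (x axis, log scale) for 11700 tested genes, 1 point a gene, with the 43 replication genes as larger red points. The replication genes lie between -0.15 and 0.17 and sit in the middle and right of the cloud, where differences are small.

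Of the 43 genes, 18 were higher and 25 lower with daidzein, with a median log2 difference of -0.0032, beside -0.0027 over all genes tested. The folds ran from 0.902 for E2f2 to 1.13 for Pole2. As to precision, the 95% intervals of 39 of the 43 folds lay within a 1.2-fold change in either direction, and those of all 43 within 1.5-fold. The exceptions to the first were Pole2, Ccne2, Gins3 and E2f2. Over the 43 genes the lowest bound was 0.760 and the highest 1.29. Among 11700 tested genes, 5596 intervals lay within 1.2-fold and 9371 within 1.5-fold. Of the 7208 tested genes within the CPM range of the 43, 5441 lay within 1.2-fold and 7198 within 1.5-fold. The median coefficient of variation over the 4 libraries was 3.42% for the 43 genes, 4.56% for the 7208 tested genes within their range of CPM and 6.24% for all tested genes. The 7208 are matched by range only, with a median of 62.6 CPM beside 99.5 for the 43 genes.

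**Figure D5:**
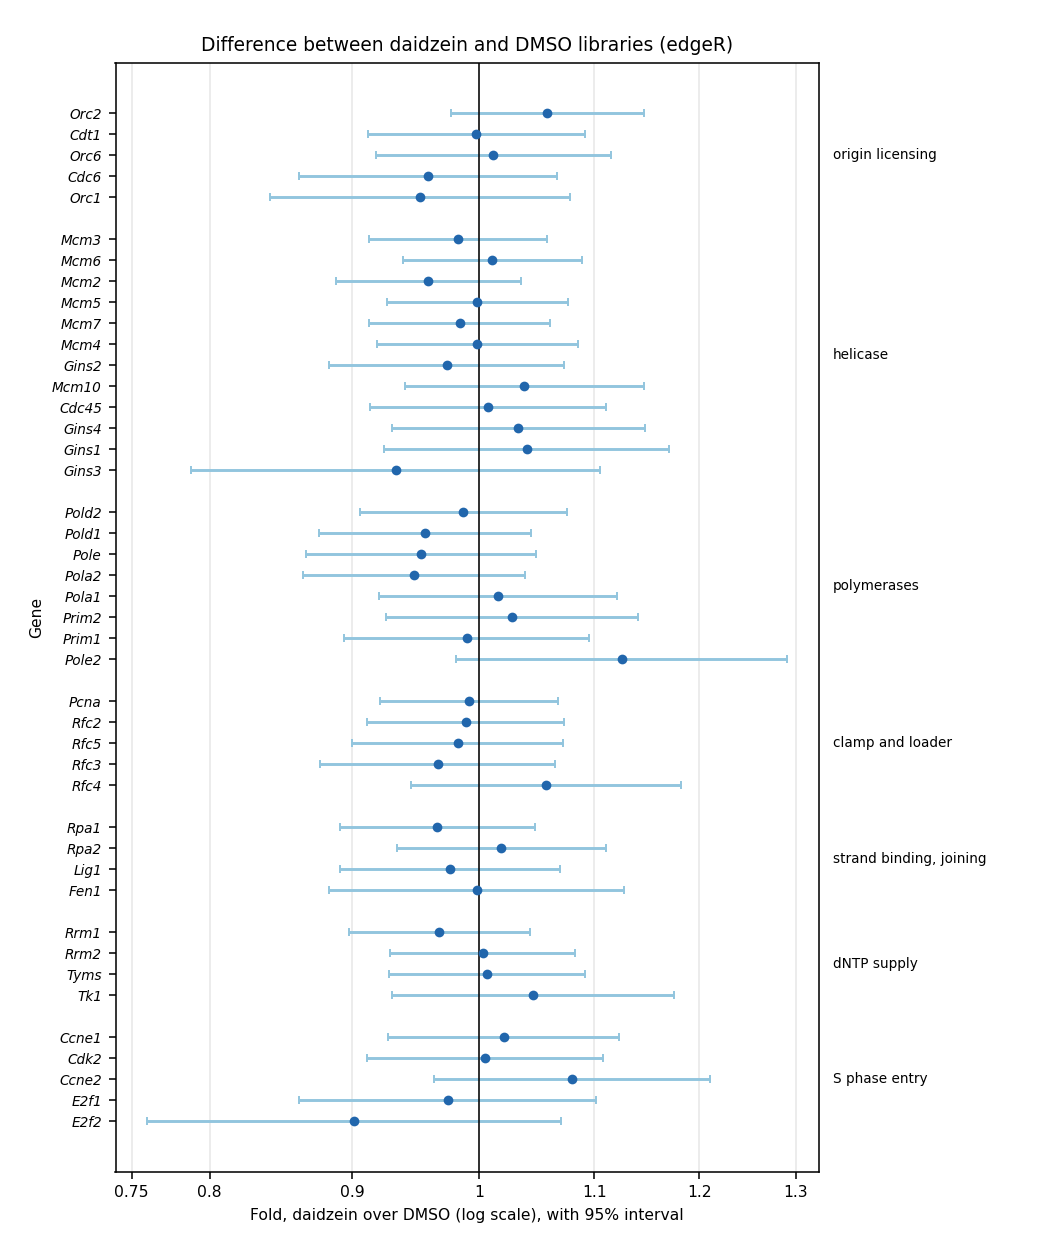
Fold of daidzein over DMSO (x axis, log scale) for each of the 43 genes (y axis), grouped by function. Points are edgeR estimates and bars their 95% intervals. Every bar crosses 1, and the bars span 0.760 to 1.29.

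In 5 of the 43 genes (11.6%) both daidzein libraries lay above both DMSO libraries, where 14.7% of all tested genes did so. In 7 genes (16.3%) both lay below, beside 15.0% of all tested genes. Both shares were near the background. The 5 were Orc2, Ccne2, Pole2, Gins4 and Rpa2, and the 7 were Mcm2, Mcm7, Orc1, Pola2, Pold1, Rrm1 and E2f2.

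Origin licensing genes had 2 higher and 3 lower, with folds of 0.952 to 1.06. Orc2 (GRCm38 chromosome 1, 58462771 to 58505109, minus strand) had 240 and 251 CPM with DMSO and 263 and 257 with daidzein. The groups did not overlap, but its fold was 1.06 (95% interval 0.977 to 1.15) with an edgeR adjusted p of 1.00. Its unadjusted p was 0.156, and 0.0391 with the replicate number as a block, where the adjusted p was 0.747. Orc1 had 36.7 and 36.9 against 34.6 and 35.4 CPM, a fold of 0.952 (0.841 to 1.08). Cdc6 had 77.4 and 78.3 against 69.8 and 79.4 CPM, so daidzein replicate 1 lay lowest and replicate 2 highest. Cdt1 and Orc6 had folds of 0.998 and 1.01.

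Of the helicase genes 5 were higher and 7 lower, and the folds ran from 0.933 for Gins3 to 1.04 for Gins1. Mcm2 (GRCm38 chromosome 6, 88883474 to 88898780, minus strand) had 549 and 550 CPM with DMSO and 511 and 543 with daidzein. Daidzein replicate 2 lay closer to the DMSO libraries than to daidzein replicate 1, and the fold was 0.959 (0.888 to 1.04). Mcm3 (GRCm38 chromosome 1, 20802968 to 20820312, minus strand) had 733 and 746 against 720 and 733 CPM, a fold of 0.983 (0.913 to 1.06). Mcm5 had 525 and 545 against 537 and 531 CPM, a fold of 0.998 (0.926 to 1.08). Mcm4 had 239 and 260 against 251 and 248 CPM, so the DMSO libraries were the lowest and the highest, with a fold of 0.998 (0.919 to 1.09). Mcm6 had 591 and 605 against 607 and 603 CPM. Mcm7 had 415 and 413 against 409 and 406 CPM, and its groups did not overlap. The folds of Mcm6 and Mcm7 were 1.01 (0.939 to 1.09) and 0.984 (0.913 to 1.06). Gins4 had 59.6 and 59.8 against 62.5 and 60.8 CPM, a fold of 1.03 (0.931 to 1.15). Gins3, at 280 to 327 reads per library, had a wide interval of 0.788 to 1.11. Gins1, Gins2, Cdc45 and Mcm10 had folds of 1.04, 0.973, 1.01 and 1.04, with overlapping libraries.

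Polymerase genes had 3 higher and 5 lower. Pole2 (GRCm38 chromosome 12, 69201773 to 69228195, minus strand), the accessory subunit of polymerase epsilon, had the smallest p of the list. It had 26.2 and 28.8 CPM with DMSO and 31.0 and 31.0 with daidzein. Both daidzein libraries lay above both DMSO libraries, with a fold of 1.13 (0.981 to 1.29), an unadjusted p of 0.0871 and an edgeR adjusted p of 1.00. Leaving out DMSO replicate 1 moved the log2 difference from 0.17 to 0.11, and leaving out DMSO replicate 2 moved it to 0.24. Pole, the catalytic partner, had 130 and 139 against 123 and 134 CPM, a fold of 0.953 (0.866 to 1.05). Pola2 had 115 and 110 against 107 and 107 CPM, a fold of 0.948 (0.864 to 1.04). Pold1 had 144 and 153 against 141 and 143 CPM, a fold of 0.956 (0.876 to 1.04). In neither gene did the groups overlap. Pola1, Prim1, Prim2 and Pold2 had folds of 1.02, 0.990, 1.03 and 0.987, and their libraries overlapped.

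Of the clamp and its loader, 1 gene was higher and 4 were lower, and libraries of the groups overlapped in all 5. Pcna (GRCm38 chromosome 2, 132249162 to 132253314, minus strand) had 541 and 546 CPM with DMSO and 543 and 535 with daidzein, a coefficient of variation of 0.834%. Rfc4 had 57.2 and 59.0 against 64.9 and 58.0 CPM. Daidzein replicate 1 stood above the rest and daidzein replicate 2 lay between the DMSO libraries, with a fold of 1.06 (0.945 to 1.18). Rfc2, Rfc3 and Rfc5 had folds of 0.989, 0.966 and 0.982.

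In the genes of strand binding and joining, Rpa2 had 142 and 142 against 143 and 146 CPM, a fold of 1.02 (0.935 to 1.11) with groups that did not overlap. Rpa1, its partner, had 265 and 283 against 261 and 269 CPM, a fold of 0.966 (0.891 to 1.05). Fen1 and Lig1 had folds of 0.998 and 0.977.

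The dNTP supply genes had 3 higher and 1 lower. Rrm1 had 494 and 485 CPM with DMSO against 469 and 479 with daidzein, a fold of 0.968 (0.898 to 1.04), and its groups did not overlap. Rrm2, which pairs with it and is made in S phase, had 374 and 384 against 373 and 387 CPM, a fold of 1.00 (0.929 to 1.08). In this gene the replicates of a group lay farther apart than the group means. Tyms ran from 198 to 201 CPM and had the lowest coefficient of variation of the 43 genes, 0.709%. Tk1 had 47.8 and 44.1 against 48.5 and 47.6 CPM, a fold of 1.05 (0.931 to 1.17).

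Among S phase entry genes, Ccne2 (GRCm38 chromosome 4, 11191351 to 11204779, plus strand) had 56.6 and 65.7 CPM with DMSO and 66.5 and 65.7 with daidzein. DMSO replicate 1 stood apart and the other libraries lay together, and the log2 difference of 0.11 was 0.0096 without it and 0.23 without DMSO replicate 2. Its fold was 1.08 (0.963 to 1.21). E2f2 (GRCm38 chromosome 4, 136172394 to 136196057, plus strand) had its DMSO replicate 1 apart in the other direction, with 21.1 and 17.9 CPM against 17.5 and 17.6. Its fold was 0.902 (0.760 to 1.07), and the log2 difference of -0.15 was -0.03 without DMSO replicate 1 and -0.26 without the other DMSO library. E2f1 had 40.0 and 39.4 against 37.2 and 40.1 CPM, a fold of 0.974 (0.862 to 1.10). Ccne1 and Cdk2 had folds of 1.02 and 1.00.

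The 43 genes together took 0.791% and 0.805% of all counts with DMSO and 0.786% and 0.797% with daidzein, so the groups overlapped. Each library was the highest for 9 to 13 of the genes and the lowest for 8 to 13. The 15 genes with an E2F match in the promoter had a median log2 difference of -0.0253, with a range of -0.1492 to 0.1703. The 20 with an entry and no match had a median of 0.0008, with a range of -0.0778 to 0.0812, so the ranges overlapped.

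Of other genes of the pathway, 81 were listed. They were 18 genes of origin firing and the fork, 14 of synthesis and Okazaki fragments, 20 of nucleotide supply, 8 of chromatin behind the fork and 21 of S phase control. Of the 81, all tested, 41 were higher and 40 lower, and 0 rose and 0 fell by edgeR with p adjusted over all genes. In that fit 3 had an unadjusted p under 0.05, beside 341 of all 11700 genes (2.91%). DESeq2 and limma called 0 of them. At an unadjusted p under 0.05, DESeq2 had 1 of them, beside 81 of all 11700 genes, and limma had 2, beside 461. With the replicate block 0 of the 81 were called. In that fit 9 of the 81 had an unadjusted p under 0.05, beside 748 of all 11700 genes. Cdkn1b, the kinase inhibitor p27 that holds back cyclin E, had the smallest p. It had 26.2 and 28.7 CPM with DMSO and 21.3 and 23.8 with daidzein, a fold of 0.821 (0.706 to 0.954) with an unadjusted p of 0.0128 and an edgeR adjusted p of 1.00. Tk2, the mitochondrial thymidine kinase, had 11.3 and 9.61 against 13.2 and 12.5 CPM, a fold of 1.23 (1.00 to 1.51). Orc4, a further origin complex subunit, had 40.8 and 48.1 against 50.6 and 50.3 CPM, a fold of 1.13 (1.00 to 1.29). Mcm9, a helicase of repair, had 8.11 and 9.09 against 7.20 and 6.50 CPM, a fold of 0.795 (0.628 to 1.01). The groups did not overlap in these 4 genes, which were picked by their small p, and none passed. Both daidzein libraries lay above both DMSO libraries in 12 of the 81 genes (14.8%) and below in 9 (11.1%). For all tested genes these shares were 14.7% and 15.0%. The most read genes of the 81 were Cad, which carries out the first steps of pyrimidine synthesis, with a fold of 0.951, Ddb1 with 0.975, Top2a, a topoisomerase, with 0.992 and the methyltransferase Dnmt1 with 0.982.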

How the data were processed

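RNA was sequenced from 2 DMSO and 2 daidzein libraries, grouped by their titles. Per the submitters' processing notes, the names listed, without a stated role, are DESeq2, the build mm9, HTSeq 0.6.1 and HISAT2 2.0.1. The table's coordinates are those of GRCm38, since all 43 genes have the same start and end in GENCODE M21. The deposited values are whole-number read counts per gene, not normalized, and FPKM by the authors. The main test on counts was that of edgeR 4.0.16 under R 4.3.3 (quasi-likelihood, TMM, filterByExpr, 95% intervals), with p adjusted over all 11700 genes at a threshold of 0.05. CPM values of genes are normalized by TMM, whereas the marker sums use library totals alone. Copies were searched with blastn 2.17.0. The steps were tested on simulated data. Alternatives were other scalings and filters, a prior count of 2, robust estimation, a replicate block, DESeq2 1.42.0, limma 3.58.1 on log2(FPKM + 1), and each library left out. The lists and genes were chosen with earlier results of these data known. All 43 genes are named, and of the other pathway genes the 4 with the smallest p and the 4 with the most reads. Germ cell, leukocyte, macrophage and mast cell markers were checked. The depth of each library is given with the results, and Wilson intervals cover counting error only.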

Additional observations from a re-analysis of the deposited data

How the results depend on the processing

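None of the 13 alternatives run on the test called any of the 43 genes or of the 81 other pathway genes. Of 559 recomputed differences of the 43 genes, 31 changed sign, all of them of genes that never passed, and 20 genes kept their sign in every alternative. With DESeq2 size factors or library totals alone, 0 changed sign. Over all genes, 2 calls became 11 if every gene with a read was tested, 1 if only genes at 5 CPM were, 1 by DESeq2 (81 at an unadjusted p under 0.05) and 0 by limma trend on log2(FPKM + 1), with 461 at an unadjusted p under 0.05. Leaving out DMSO replicate 1, DMSO replicate 2, daidzein replicate 1 or daidzein replicate 2 gave 4, 12, 11 and 17 calls, in fits that take a single remaining library to be as variable as its counterparts; without DMSO replicate 2, Pole2 and Ccne2 were among 710 of 12049 genes with an unadjusted p under 0.05. With the replicate block 27 genes were called. The labels give same-numbered libraries no shared culture or batch, so they were treated as unpaired; their deviations had a correlation of 0.09 over genes, yet of the 6 library pairs the same-numbered ones were the closest (chi-square per degree of freedom 2.23 and 3.51, against 4.17 and 4.38 within groups). The ratio of the highest to the lowest of the 43 levels, 59.5 on FPKM, was 91.2 with the length of 1 coding transcript. The share of promoters with an E2F motif, 35.7%, was 31.0% with TTTGGCGC and TTTCCCGC only. The cause of these changes was not tested. The comparison had 2 libraries a group, at 16230400 to 18537134 counts a library. The intervals are not adjusted for the number of genes tested, whereas the calls are. An interval that leaves out 1 therefore need not go with a call. Cdkn1b, with a fold of 0.821 (0.706 to 0.954), was not called. A true difference of that size could go uncalled, though Cdkn1b alone does not show how often. The simulated data held set fold changes, but their recovery is not given here. The smallest difference that could be called was not estimated.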
